A study of Mus musculus with 3 samples.

Results

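The collagen chain genes were read across 3 mouse melanoma cell lines, YUMM2.1, YUMM1.7 and YUMM1.1. The members were all rows of the authors' FPKM table (fragments per kilobase of transcript, scaled to library size) whose symbol has the form of Col, a type number, the letter a and a chain number. The pattern found 41 of 25791 symbols. Of these, 21 reached 1 FPKM in at least 1 line (51.2%, against 45.5% of all symbols) and 20 stayed below it in every line. YUMM lines were derived from melanomas of engineered mice and come from a study of PD-1 blockade in mice that carry such tumors. The labels give the name of each line and state no genotype, treatment, passage or age. As background, all 3 lines carry an activated Braf allele, YUMM1.7 and YUMM1.1 lack Cdkn2a, and the melanoma that gave YUMM2.1 carried a stabilized beta-catenin. The alleles were recombined in melanocytes by an inducible Cre under the tyrosinase promoter. Total RNA of each line was sequenced as 1 library, so every difference given here is between single libraries, was not tested and has no replicate check.

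Collagens are secreted or membrane-bound proteins of the extracellular matrix in which 3 chains wind into a triple helix. Fibrillar collagens form the cross-linked fibers of skin, tendon and bone, type IV collagen forms the sheet of basement membranes, type VI collagen forms beaded filaments around cells, and fibril-associated collagens coat existing fibers. Most collagen of the dermis is laid down by fibroblasts, while Schwann cells secrete a basement membrane of their own. Within a line, FPKM values of different chains are per transcript length and were set beside each other. The authors' annotation and filters are not given, so errors in the mapping or length of single genes could not be checked. Between lines, differences are given on the log2(FPKM + 1) scale, where a difference of 2 (4-fold) was counted as higher or lower.

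The sequences before the starts of 6 chains are shown because these genes are among those furthest apart between the lines or, for Col3a1, lead the fibrillar class in YUMM1.1. For each chain, the longest run of the 250 bases before the RefSeq start that no exon of the GENCODE M21 annotation covers is printed. The starts and the exons thus come from different annotations. The bases are those of build GRCm38.p6, which need not be the build of the authors. Col1a2 (chr6:4505370-4505492, plus strand) and Col6a3 (chr1:90843972-90844221, minus strand) had their highest values in YUMM1.7, Col11a1 (chr3:114030290-114030539, plus strand) in YUMM2.1, and Col3a1 (chr1:45311288-45311537, plus strand), Col15a1 (chr4:47207762-47208011, plus strand) and Col6a1 (chr10:76726169-76726294, minus strand) in YUMM1.1. Capitals mark matches to 4 motifs searched on both strands, and no match overlapped another. TATAAA is the core promoter element that places the start of some genes. GGGCGG is the motif of Sp1 and its relatives, CCAAT is the motif of NF-Y, and TGANTCA is the motif of the AP-1 factors.
Col1a2: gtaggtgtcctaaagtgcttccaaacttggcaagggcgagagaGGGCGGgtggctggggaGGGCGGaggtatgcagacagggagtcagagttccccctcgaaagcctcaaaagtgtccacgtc
Col6a3: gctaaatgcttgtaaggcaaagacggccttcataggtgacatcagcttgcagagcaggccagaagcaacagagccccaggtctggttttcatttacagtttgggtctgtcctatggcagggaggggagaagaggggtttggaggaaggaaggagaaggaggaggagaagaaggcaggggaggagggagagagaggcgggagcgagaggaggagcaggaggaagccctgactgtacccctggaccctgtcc
Col11a1: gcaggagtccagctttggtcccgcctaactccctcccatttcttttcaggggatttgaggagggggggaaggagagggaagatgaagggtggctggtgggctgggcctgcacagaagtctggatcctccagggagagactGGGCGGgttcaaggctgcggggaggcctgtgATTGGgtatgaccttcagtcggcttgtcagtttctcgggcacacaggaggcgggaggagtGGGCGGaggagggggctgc
Col3a1: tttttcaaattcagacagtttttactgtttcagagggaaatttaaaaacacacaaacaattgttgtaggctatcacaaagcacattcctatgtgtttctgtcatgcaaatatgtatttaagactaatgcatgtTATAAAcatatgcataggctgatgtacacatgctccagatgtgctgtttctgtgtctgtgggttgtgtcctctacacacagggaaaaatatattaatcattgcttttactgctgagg
Col15a1: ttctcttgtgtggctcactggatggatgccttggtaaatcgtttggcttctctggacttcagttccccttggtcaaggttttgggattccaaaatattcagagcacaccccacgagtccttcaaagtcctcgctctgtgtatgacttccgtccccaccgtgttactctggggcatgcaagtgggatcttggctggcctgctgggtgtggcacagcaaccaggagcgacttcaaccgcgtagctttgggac
Col6a1: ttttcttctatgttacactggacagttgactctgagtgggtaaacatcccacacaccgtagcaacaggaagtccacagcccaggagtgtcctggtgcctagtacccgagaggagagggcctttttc

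Counted from -1 at the base before the start, Col1a2 had GGGCGG at -205 and -188, and Col11a1 had GGGCGG at -110 and -19 and CCAAT, on the opposite strand, at -79. Col3a1 had TATAAA at -117, and the stretches of Col6a3, Col15a1 and Col6a1 held none of the 4 motifs. The printed part of Col1a2 and Col6a1 ends at -126 and -125, so nothing is said of the bases nearer to their starts. The table held promoters for 33 of the 41 members and 18 of the 21 chains at 1 FPKM or more. Over the 20 windows of those 18 genes, GGGCGG was present in 60.0%, CCAAT in 40.0%, TATAAA in 5.0% and TGANTCA in 5.0%. Over all 32851 windows of the table, the shares were 32.7%, 33.8%, 12.4% and 6.75% in the same order. A match is a description of letters and not of a bound site.

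The most abundant collagen chain differed between the lines. In YUMM2.1 the 3 most abundant chains were Col18a1, Col5a2 and Col8a1, which held 57.6% of the summed collagen FPKM. In YUMM1.7 they were Col1a2, Col18a1 and Col6a3, with 65.4%, and in YUMM1.1 they were Col6a1, Col18a1 and Col3a1, with 55.9%. Only Col18a1 was in the leading group of all 3 lines. Of the 21 chains, 11 were at 1 FPKM or more in all 3 lines, 6 in 2 lines and 4 in 1 line. A level of 10 FPKM or more was reached by 11 chains in YUMM2.1, 8 in YUMM1.7 and 11 in YUMM1.1. As deposited, 5 chains were highest in YUMM2.1, 4 in YUMM1.7 and 12 in YUMM1.1, and 2, 13 and 6 were lowest there in the same order of lines. Of the 21 chains, 15 had a difference above 0 in YUMM2.1 minus YUMM1.7, 9 in YUMM2.1 minus YUMM1.1 and 6 in YUMM1.7 minus YUMM1.1. Over all 11741 symbols at 1 FPKM or more in a line, the shares above 0 were 49.1%, 45.7% and 50.9%. Counts by highest or lowest line, by number of lines and at 10 FPKM were not taken over all symbols. With each line rescaled to a common FPKM sum, 9, 3 and 9 chains were highest in YUMM2.1, YUMM1.7 and YUMM1.1, because Col1a1, Col5a1, Col4a2 and Col18a1 then had their highest value in YUMM2.1.

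**Figure D1:**
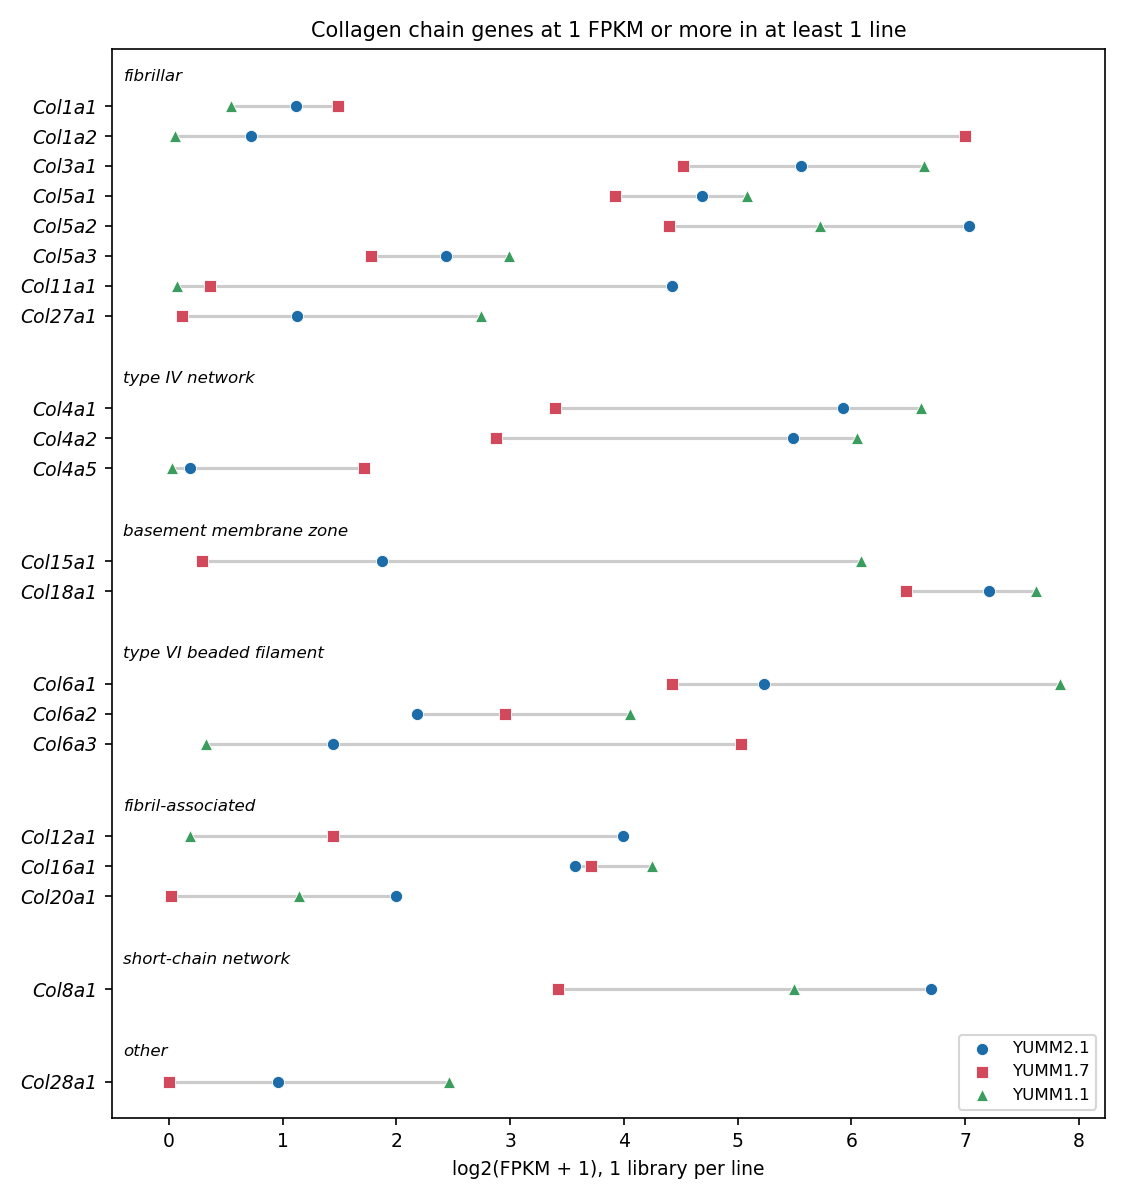
Level of each of the 21 collagen chain genes at 1 FPKM or more in at least 1 line, as log2(FPKM + 1) on the horizontal axis, with 1 point per line (1 library each) and a grey bar over the range. Col1a2 and Col6a3 stand far to the right in YUMM1.7, Col11a1 and Col12a1 in YUMM2.1, and Col15a1 and Col6a1 in YUMM1.1.

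Depth was read from the spacing of low FPKM values, since the table holds no counts. The spacing implied about 85.8 M scaled fragments in YUMM2.1, 45.2 M in YUMM1.7 and 67.2 M in YUMM1.1. Collagen transcripts are long, so most values of the 21 chains rest on many fragments. Col1a1 corresponded to about 594, 481 and 182 fragments in YUMM2.1, YUMM1.7 and YUMM1.1, and Col1a2 to about 299, 30615 and 13.2. Small numbers also stood behind Col11a1 (26.5) and Col4a5 (7) in YUMM1.1 and Col27a1 (28.6) and Col20a1 (2.3) in YUMM1.7. Ratios over such values are imprecise. Such numbers speak to counting error only and not to differences between cultures. Values listed at 0 are not read as absence, since the ribosomal protein gene Rpl41 had 15803 FPKM in YUMM2.1, a listed 0 in YUMM1.7 and 36747 FPKM in YUMM1.1. Among the 21 chains the only value listed at 0 was that of Col28a1 in YUMM1.7.

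Marker genes of melanocytes and of other cell types were read in each line. Sox10, a regulator of melanocytes and other neural crest derivatives, had 44.3 FPKM in YUMM2.1, 0.00821 in YUMM1.7 and 107 in YUMM1.1. Pigment genes were low, and Tyr, Tyrp1 and Dct reached at most 0.279, 0.0260 and 0.0318 FPKM in any line, while the melanosome gene Mlana stood at 6.18 FPKM in YUMM2.1, was at 0 in YUMM1.7 and at 0.159 in YUMM1.1. Mitf, the master regulator of melanocytes, stood at 1.23 FPKM in YUMM2.1, 0.617 in YUMM1.7 and 0.188 in YUMM1.1, another order of lines than that of Sox10. Of the 6 melanocyte markers with a row, 3 (Sox10, Mitf and Mlana) reached 1 FPKM in a line. Of 6 fibroblast markers, 3 (Pdgfra, Pdgfrb and Dcn) reached 1 FPKM in a line, and the list summed to 2.25 FPKM in YUMM2.1, 28.5 in YUMM1.7 and 0.230 in YUMM1.1. Fap, Thy1 and Lum, the rest of that list, reached at most 0.149, 0.0356 and 0.00583 FPKM. Of 4 leukocyte markers, Cd53 and Cd68 reached 1 FPKM, at 3.01 and 4.27 FPKM in YUMM2.1, while the defining marker Ptprc reached at most 0.00217 FPKM. The list of 4 endothelial markers summed to 0.193 FPKM or less in every line. Of 4 keratinocyte markers only Krt10 reached 1 FPKM. Of 6 pericyte and smooth muscle markers, 3 (Cspg4, Acta2 and Tagln) reached 1 FPKM, and the list summed to 567, 191 and 50.2 FPKM in YUMM2.1, YUMM1.7 and YUMM1.1. Cspg4 had another order than the sum, at 27.9 FPKM in YUMM2.1, 9.55 in YUMM1.7 and 47.2 in YUMM1.1, while Acta2 (326, 150 and 2.0 FPKM) and Tagln (213, 32.0 and 0.886 FPKM) were lowest in YUMM1.1. The part of these markers in the collagen values was not tested. In bulk RNA, more cells of a type and more RNA per cell cannot be told apart.

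Type I collagen, the main fiber of skin and bone, showed a wide split between its partner chains. Col1a2, the gene of its alpha-2 chain, stood at 0.651 FPKM in YUMM2.1, 127 in YUMM1.7 and 0.0367 in YUMM1.1. Its partner Col1a1, the gene of the alpha-1 chain, stood at 1.17 FPKM in YUMM2.1, 1.79 in YUMM1.7 and 0.455 in YUMM1.1. Col1a2 was high in YUMM1.7 and below 1 FPKM in both other lines, while Col1a1 stayed below 2 FPKM in all 3. For Col1a2, YUMM1.7 was 195 times the level in YUMM2.1 and 3452 times that in YUMM1.1. For Col1a1 the same ratios were 1.54 and 3.94. By rank among all symbols, Col1a2 was at place 1011 in YUMM1.7, and Col1a1 was at place 9446 of the same library. YUMM1.7 was also the line with the highest sum of fibroblast markers (28.5 FPKM). Most of that sum came from Pdgfra (13.9 FPKM) and Pdgfrb (13.0 FPKM), while Dcn stood at 1.40 FPKM in YUMM1.7. In the same line Fap and Thy1 stood at 0.149 and 0.0268 FPKM, and Lum was listed at 0. The part of the marker difference in the Col1a2 value was not tested.

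The fibrillar chains of types III and V were present in all 3 lines. Col3a1, the single chain of type III collagen of skin and vessels, stood at 46.2 FPKM in YUMM2.1, 21.9 in YUMM1.7 and 98.7 in YUMM1.1, well above both type I chains in YUMM2.1 and YUMM1.1. Type V chains help to start fibrils and limit their diameter. Col5a1 stood at 24.7 FPKM in YUMM2.1, 14.1 in YUMM1.7 and 32.9 in YUMM1.1, which is the narrowest range of the fibrillar chains above 10 FPKM. Col5a2 stood at 130.0 FPKM in YUMM2.1, 20.0 in YUMM1.7 and 51.8 in YUMM1.1. Col5a3 stood at 4.42 FPKM in YUMM2.1, 2.43 in YUMM1.7 and 6.92 in YUMM1.1. Col3a1, Col5a1 and Col5a3 had the same order of lines, with YUMM1.7 lowest and YUMM1.1 highest, while Col5a2 was highest in YUMM2.1. With a common sum Col5a1 was highest in YUMM2.1 as well.

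The minor fibrillar chains differed more between lines than Col5a1 did. Col11a1, a type XI chain best known from cartilage, where it sets fibril thickness, stood at 20.4 FPKM in YUMM2.1, 0.283 in YUMM1.7 and 0.0513 in YUMM1.1. YUMM2.1 was 72.2 times YUMM1.7 and 398 times YUMM1.1 for this chain. Col27a1, a fibrillar collagen of the growth plate, stood at 1.18 FPKM in YUMM2.1, 0.0833 in YUMM1.7 and 5.70 in YUMM1.1, a level carried by few fragments in YUMM1.7 (about 28.6). The remaining fibrillar genes, Col2a1, Col11a2 and Col24a1, reached at most 0.103 FPKM in any line. At 10 FPKM or more in 1 line and below 1 FPKM in both others, only Col11a1 in YUMM2.1 and Col1a2 in YUMM1.7 were found among the 41 members. The share of all symbols that meet this rule was not computed, so nothing particular to collagens is read from it.

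The main type IV chains were low in YUMM1.7 relative to both other lines. Col4a1 and Col4a2, whose products form the type IV network of nearly all basement membranes, are direct neighbors in the RefSeq gene order and had the same order of lines. Col4a1 stood at 59.7 FPKM in YUMM2.1, 9.53 in YUMM1.7 and 97.0 in YUMM1.1. Col4a2 stood at 43.7 FPKM in YUMM2.1, 6.35 in YUMM1.7 and 65.2 in YUMM1.1. Both were at least 4-fold higher in YUMM2.1 than in YUMM1.7 (differences of 2.53 and 2.61), and YUMM1.7 was lower than YUMM1.1 by the same rule (-3.22 and -3.17). Between YUMM2.1 and YUMM1.1 neither reached 4-fold (-0.69 and -0.57).

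Col4a5, a chain of specialised basement membranes such as that of the kidney glomerulus, went against this order. It stood at 0.139 FPKM in YUMM2.1, 2.29 in YUMM1.7 and 0.0159 in YUMM1.1. Its neighbor Col4a6 stood at 0.322 FPKM in YUMM2.1, 0.567 in YUMM1.7 and was listed at 0 in YUMM1.1. The neighbors Col4a3 and Col4a4 were below 1 FPKM in every line, with Col4a3 at 0.336 FPKM in YUMM2.1, 0.00246 in YUMM1.7 and 0.00332 in YUMM1.1 (about 0.9 fragments in YUMM1.7 and 1.9 in YUMM1.1). Col4a4 stood at 0.819 FPKM in YUMM2.1, 0.00271 in YUMM1.7 and 0.0239 in YUMM1.1. Each of these 3 neighboring type IV pairs had both of its members highest in 1 line, YUMM1.1 for Col4a1 and Col4a2, YUMM2.1 for Col4a3 and Col4a4, and YUMM1.7 for Col4a5 and Col4a6. After rescaling to a common sum, Col4a2 was highest in YUMM2.1 (69.2 FPKM, against 68.6 in YUMM1.1), and so was Col4a6 (0.510 FPKM, against 0.340 in YUMM1.7), so that only Col4a3 and Col4a4 still shared a highest line.

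The collagens of the basement membrane zone differed from each other. Col18a1, the source of the angiogenesis inhibitor endostatin, was abundant in every line, at 147 FPKM in YUMM2.1, 88.3 in YUMM1.7 and 196 in YUMM1.1. Its relative Col15a1, which lies between basement membranes and the interstitial matrix, stood at 2.67 FPKM in YUMM2.1, 0.222 in YUMM1.7 and 66.8 in YUMM1.1. For Col15a1, YUMM2.1 was 0.0400 times and YUMM1.7 0.00332 times the level in YUMM1.1. Col7a1, which forms the anchoring fibrils of the epidermis, stood at 0.933 FPKM in YUMM2.1, 0.0734 in YUMM1.7 and 0.192 in YUMM1.1, just under the minimum of 1 FPKM.

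Type VI collagen, a heterotrimer of 3 different chains, was led by another chain in YUMM1.7 than in the other lines. Col6a1 stood at 36.7 FPKM in YUMM2.1, 20.5 in YUMM1.7 and 227 in YUMM1.1. Col6a2, its neighbor in the genome, stood at 3.54 FPKM in YUMM2.1, 6.76 in YUMM1.7 and 15.6 in YUMM1.1. Col6a3, the largest of the 3, stood at 1.71 FPKM in YUMM2.1, 31.7 in YUMM1.7 and 0.255 in YUMM1.1. Col6a1 and Col6a2 were highest in YUMM1.1, where Col6a3 was lowest. The related Col6a6 was listed at 0 in all 3 lines.

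Col12a1 and Col20a1 of the fibril-associated class and the short-chain Col8a1 had their highest values in YUMM2.1. Col12a1, which binds the surface of fibrils, stood at 14.9 FPKM in YUMM2.1, 1.71 in YUMM1.7 and 0.139 in YUMM1.1. Col16a1, another fibril-associated chain, stood at 10.8 FPKM in YUMM2.1, 12.1 in YUMM1.7 and 18.0 in YUMM1.1, and its differences of -0.15, -0.68 and -0.53 (YUMM2.1 minus YUMM1.7, YUMM2.1 minus YUMM1.1 and YUMM1.7 minus YUMM1.1) were under 2-fold. After rescaling to a common sum they were 1.13, -0.14 and -1.27, with the sign of the first turned. Col20a1 stood at 2.98 FPKM in YUMM2.1, 0.0103 in YUMM1.7 (about 2.3 fragments) and 1.21 in YUMM1.1. Col8a1, a chain of the short-chain network of vessel walls and the cornea, stood at 103 FPKM in YUMM2.1, 9.71 in YUMM1.7 and 44.0 in YUMM1.1. Its possible partner Col8a2 reached at most 0.015 FPKM.

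Col28a1, a collagen that in the mouse is known from peripheral nerve, had 0.948 FPKM in YUMM2.1, a listed 0 in YUMM1.7 and 4.52 FPKM in YUMM1.1. Of the 20 members below 1 FPKM in every line, 6 were fibril-associated chains (Col9a1, Col9a2, Col9a3, Col14a1, Col19a1 and Col22a1, at most 0.480 FPKM), 4 were transmembrane collagens (Col13a1, Col17a1, Col23a1 and Col25a1, at most 0.289 FPKM) and 2 were short-chain collagens (Col8a2 and Col10a1, at most 0.0635 FPKM). The other 8 were the fibrillar, type IV, type VI and anchoring chains named above. No transmembrane collagen reached 1 FPKM. Emid2, which RefSeq now names Col26a1, lies outside the symbol pattern and was listed at 0 in all 3 lines.

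The makeup of the collagen transcripts was then compared as shares within each library, which do not depend on how the libraries were scaled. Fibrillar chains held 34.7% of the summed collagen FPKM in YUMM2.1, 49.6% in YUMM1.7 and 21.0% in YUMM1.1. Type IV chains held 15.9% in YUMM2.1, 4.96% in YUMM1.7 and 17.4% in YUMM1.1. Type VI chains held 6.35% in YUMM2.1, 15.6% in YUMM1.7 and 26.0% in YUMM1.1. Without Col1a2 the fibrillar share in YUMM1.7 was 24.2%, and without Col6a1 the type VI share in YUMM1.1 was 2.24%. Short-chain collagen, nearly all Col8a1, held 15.6% in YUMM2.1, 2.58% in YUMM1.7 and 4.71% in YUMM1.1. Fibril-associated chains held 4.48% in YUMM2.1, 3.71% in YUMM1.7 and 2.13% in YUMM1.1. Collagens of the basement membrane zone held 22.8%, 23.5% and 28.2% in YUMM2.1, YUMM1.7 and YUMM1.1, of which Col18a1 alone made 22.3%, 23.4% and 21.0%, and Col15a1 made 7.15% in YUMM1.1. The summed collagen FPKM was 660.2 in YUMM2.1, 378 in YUMM1.7 and 934 in YUMM1.1, which is 0.0952%, 0.0207% and 0.0897% of the whole FPKM sum of each line. Those whole sums were 693156 in YUMM2.1, 1827835 in YUMM1.7 and 1041960 in YUMM1.1, so the low percentage in YUMM1.7 depends on both sums.

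**Figure D2:**
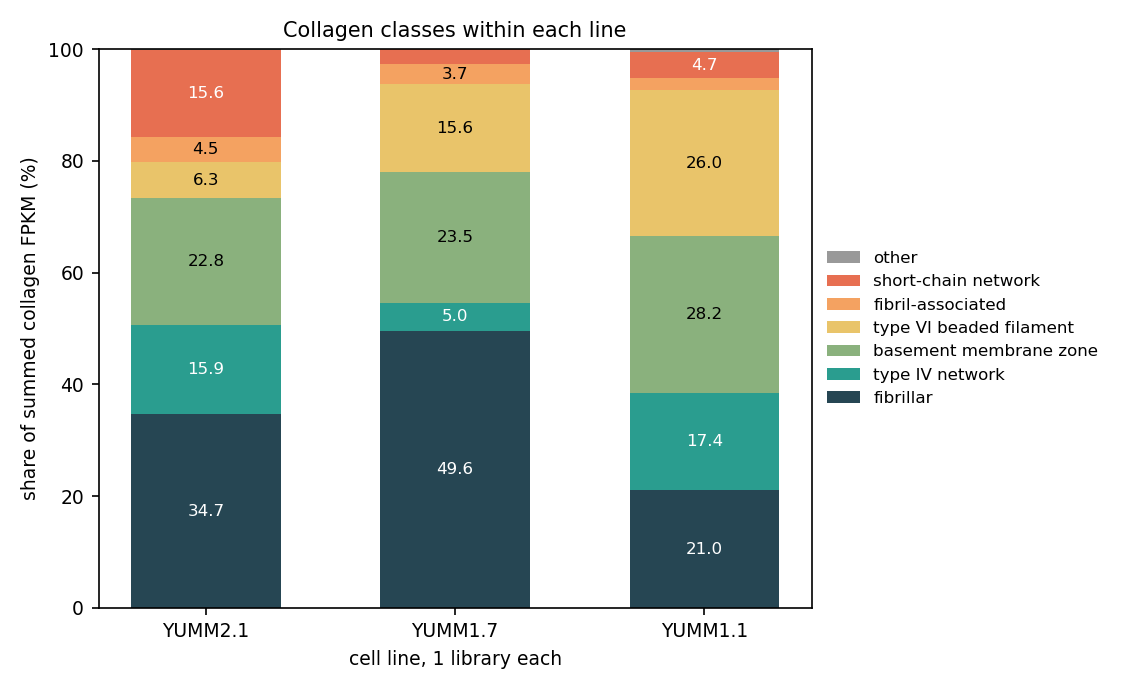
Share of each collagen class in the summed collagen FPKM (percent, vertical axis) in YUMM2.1, YUMM1.7 and YUMM1.1, 1 library each. Fibrillar chains hold 49.6% in YUMM1.7, type VI chains hold 26.0% in YUMM1.1, and short-chain collagen holds 15.6% in YUMM2.1.

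The ratio of partner chains within a library is free of scaling between libraries as well. The ratio of Col4a1 to Col4a2 was 1.37 in YUMM2.1, 1.5 in YUMM1.7 and 1.49 in YUMM1.1, although YUMM1.1 was 10.2 and 10.3 times YUMM1.7 for the 2 chains. The ratio of Col5a1 to Col5a3 was 5.58 in YUMM2.1, 5.81 in YUMM1.7 and 4.75 in YUMM1.1. These were the steadiest of the pairs examined, with the highest line at 1.1 and 1.22 times the lowest.

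Other partners did not keep their proportions. The ratio of Col1a2 to Col1a1 was 0.558 in YUMM2.1, 70.6 in YUMM1.7 and 0.0807 in YUMM1.1, a range of 876 times. The ratio of Col6a1 to Col6a3 was 21.4 in YUMM2.1, 0.647 in YUMM1.7 and 891 in YUMM1.1, a range of 1376 times. Even the neighbors Col6a1 and Col6a2 had a ratio of 10.4 in YUMM2.1, 3.03 in YUMM1.7 and 14.6 in YUMM1.1. For Col5a2 over Col5a1 it was 5.27 in YUMM2.1, 1.42 in YUMM1.7 and 1.57 in YUMM1.1, so Col5a2 was in excess of its partner most in YUMM2.1. Col3a1 and Col5a2, which are direct neighbors in the genome, had a ratio of Col5a2 to Col3a1 of 2.81 in YUMM2.1, 0.912 in YUMM1.7 and 0.524 in YUMM1.1. Col18a1 over Col15a1 gave a ratio of 55.0 in YUMM2.1, 398 in YUMM1.7 and 2.94 in YUMM1.1.

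**Figure D3:**
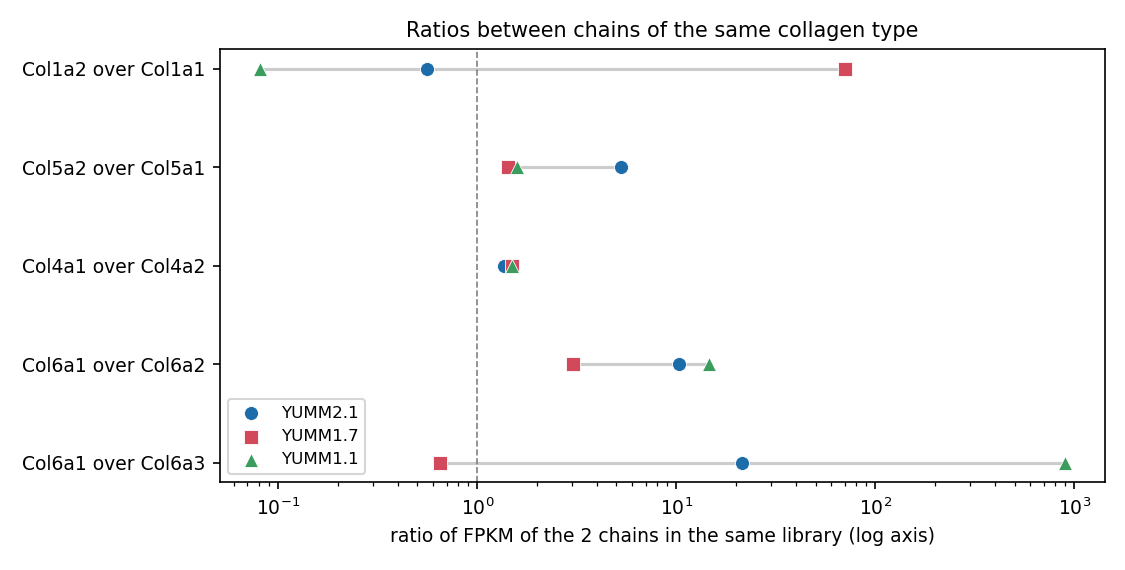
Ratio of the FPKM of 2 chains of the same collagen type within a library (log axis), 1 point per line and 1 library per line, with the dashed line at 1. Col4a1 over Col4a2 lies between 1.37 and 1.5 in the 3 lines, while Col1a2 over Col1a1 lies at 0.558 in YUMM2.1, 70.6 in YUMM1.7 and 0.0807 in YUMM1.1.

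YUMM2.1 was first set against YUMM1.7. Of the 21 chains, 6 were at least 4-fold higher in YUMM2.1 (28.6%, against 3.13% of all 11741 symbols at 1 FPKM or more in a line) and 2 were at least 4-fold lower (9.52%, against 5.54%). The higher chains were Col11a1 (difference 4.06), Col8a1 (3.28), Col5a2 (2.64), Col4a2 (2.61), Col12a1 (2.55) and Col4a1 (2.53). The lower chains were Col1a2 (-6.27) and Col6a3 (-3.59). The median difference was 0.96 for the chains and -0.02 for all symbols, and over all 41 members without the minimum it was 0.12. Of the 21 chains, 17 were among the longest transcripts (the top 1 of 5 equal groups of symbols by length), where the median of all symbols was 0.40. After rescaling to a common sum, 12 chains were higher and 2 lower, beside 13.6% and 1.64% of all symbols, with the median of all symbols at 1.1 and that of the chains at 2.11. With a pseudocount of 5 Col12a1 (1.57) did not reach 4-fold.

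The second comparison set YUMM2.1 against YUMM1.1. Here 2 chains were at least 4-fold higher in YUMM2.1 (9.52%, against 1.47% of all symbols), Col11a1 (4.35) and Col12a1 (3.81), of which Col12a1 (1.96) missed 4-fold with a pseudocount of 5. Another 2 were at least 4-fold lower (9.52%, against 1.11%), Col15a1 (-4.21) and Col6a1 (-2.60). The median was -0.41 for the chains and -0.05 for all symbols, and it was 0.20 for all symbols of the longest transcripts. After rescaling to a common sum the median of the chains turned to 0.17, below the 0.43 of all symbols.

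The third comparison set YUMM1.7 against YUMM1.1. Col1a2 (6.94) and Col6a3 (4.70) were at least 4-fold higher in YUMM1.7 (9.52%, against 3.95% of all symbols). In the other direction 8 chains were at least 4-fold lower (38.1%, against 3.06%). They were Col15a1 (-5.80), Col6a1 (-3.41), Col4a1 (-3.22), Col4a2 (-3.17), Col27a1 (-2.63), Col28a1 (-2.46, listed at 0 in YUMM1.7), Col3a1 (-2.12) and Col8a1 (-2.07). With a pseudocount of 5 in place of 1, 4 of the 8 reached 4-fold, and Col3a1, Col8a1, Col27a1 and Col28a1 did not reach it. The median was -1.16 for the chains and 0.02 for all symbols, and -0.12 for all symbols of the longest transcripts. Over all 41 members without the minimum the median was -0.11. The 3 comparisons share their libraries, so they are not independent of each other.

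**Figure D4:**
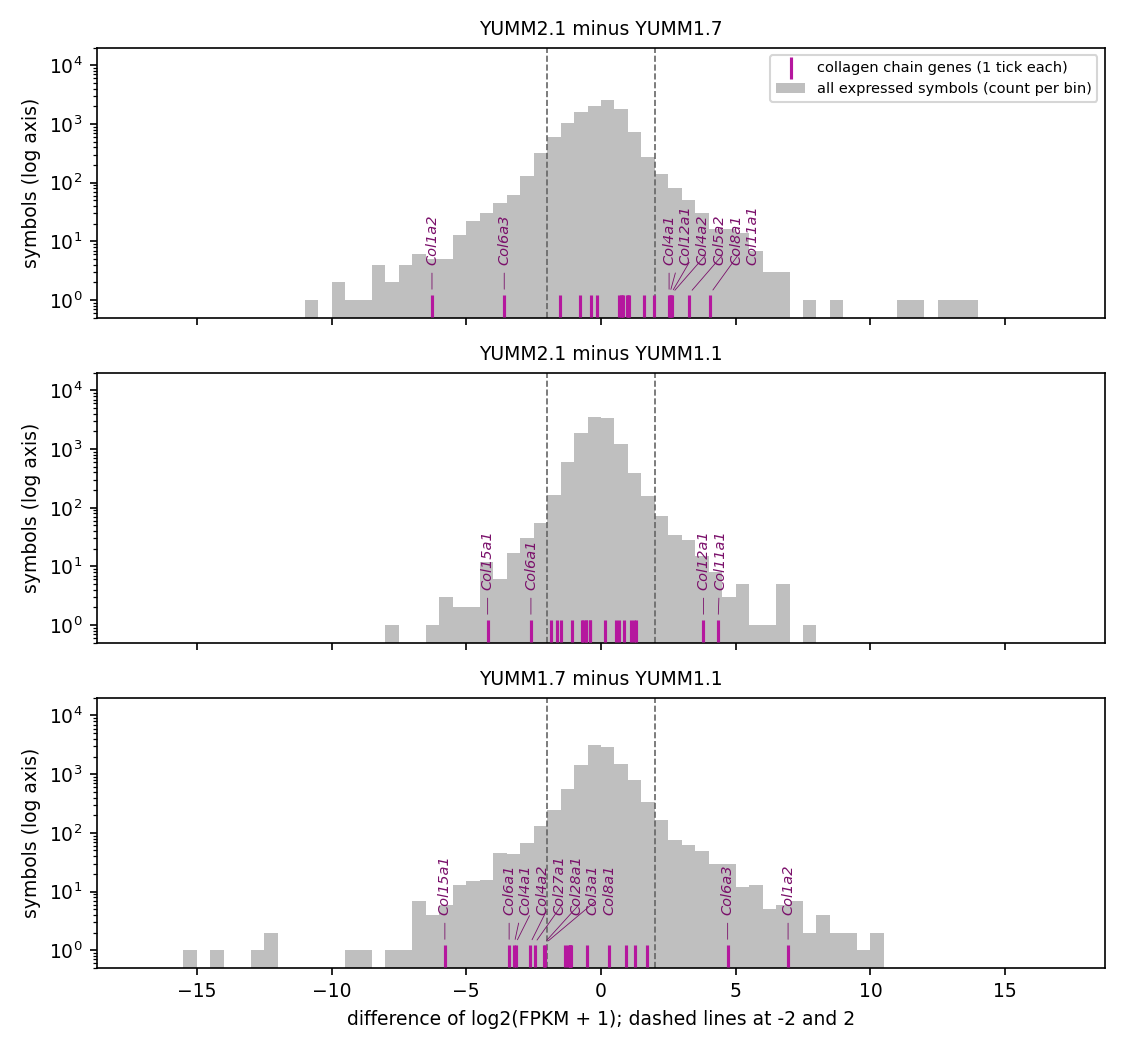
Difference of log2(FPKM + 1) for each pair of lines (1 library per line): grey bars count all 11741 symbols at 1 FPKM or more in a line per bin of 0.5 on a log axis, and ticks mark the 21 collagen chain genes. Named ticks lie beyond the dashed lines at -2 and 2, with 6 higher and 2 lower in YUMM2.1 minus YUMM1.7, 2 and 2 in YUMM2.1 minus YUMM1.1, and 2 and 8 in YUMM1.7 minus YUMM1.1.

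New collagen chains are hydroxylated and folded in the endoplasmic reticulum by a common set of enzymes and chaperones. Of 20 such genes listed, 16 reached 1 FPKM in a line. The most abundant of them stayed within 4-fold as deposited. Serpinh1, the collagen chaperone Hsp47, stood at 376 FPKM in YUMM2.1, 506 in YUMM1.7 and 663 in YUMM1.1. P4hb, a subunit of prolyl 4-hydroxylase, stood at 366 FPKM in YUMM2.1, 431 in YUMM1.7 and 598 in YUMM1.1. Its catalytic partner P4ha1 stood at 47.4 FPKM in YUMM2.1, 12.8 in YUMM1.7 and 32.4 in YUMM1.1. As deposited, none of these differed by 4-fold in any pair, nor did the lysyl hydroxylase gene Plod2, at 17.8 FPKM in YUMM2.1, 5.99 in YUMM1.7 and 5.88 in YUMM1.1.

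A few folding genes did differ by 4-fold. Fkbp10, a chaperone of type I procollagen, stood at 7.98 FPKM in YUMM2.1, 48.9 in YUMM1.7 and 0.192 in YUMM1.1. Of the prolyl 3-hydroxylase family, P3h3 stood at 1.04 FPKM in YUMM2.1, 15.8 in YUMM1.7 and 2.59 in YUMM1.1. P3h2 stood at 1.09 FPKM in YUMM2.1, 0.101 in YUMM1.7 and 4.78 in YUMM1.1, and P3h1 at 7.09, 11.5 and 14.7 FPKM in the same lines. Fkbp14, which encodes another foldase, stood at 9.83 FPKM in YUMM2.1, 2.13 in YUMM1.7 and 11.8 in YUMM1.1. In YUMM1.7 against YUMM1.1 this made 2 of 16 higher (Fkbp10 and P3h3) and 2 lower (P3h2 and Fkbp14). In YUMM2.1, 0 were higher and 2 lower (Fkbp10 and P3h3) than in YUMM1.7, and 1 was higher (Fkbp10) and 0 lower than in YUMM1.1. Beside these stand 3.95% higher and 3.06% lower of all symbols in the first of these pairs, 3.13% and 5.54% in the second, and 1.47% and 1.11% in the third. These counts moved with the settings. With a common sum P4ha1 (3.13), Plod2 (2.66) and Fkbp14 (2.86) were higher in YUMM2.1 than in YUMM1.7. Neither Fkbp10 nor P3h3 was then 4-fold lower. The folding and cross-linking genes together then had 5 higher and 1 lower in place of 0 and 3. With that scaling 13.6% of all symbols were higher and 1.64% lower in this pair, and the median of all symbols was 1.1. Under the same scaling Plod2 (2.02) also passed 4-fold in YUMM2.1 against YUMM1.1, and P4ha1 (-2.02) in YUMM1.7 against YUMM1.1. With a pseudocount of 5, Fkbp10 alone of the folding genes was 4-fold apart, with YUMM1.7 above YUMM2.1 (-2.05) and above YUMM1.1 (3.38). Mia3, which exports procollagen from the endoplasmic reticulum, was listed at 0 in all 3 lines and is not read as absent.

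Of 14 genes of propeptide removal, cross-linking and collagen binding, 9 reached 1 FPKM in a line. Loxl1, a lysyl oxidase that cross-links matrix fibers, stood at 0.0209 FPKM in YUMM2.1, 36.7 in YUMM1.7 and 0.00445 in YUMM1.1, high in the line with high Col1a2. Lox itself stood at 0.0996 FPKM in YUMM2.1, 0.109 in YUMM1.7 and was listed at 0 in YUMM1.1. Pcolce, an enhancer of the removal of the C-terminal propeptide, stood at 65.5 FPKM in YUMM2.1, 150 in YUMM1.7 and 4.29 in YUMM1.1. Sparc, whose product binds collagen, was abundant in all lines, at 1953 FPKM in YUMM2.1, 539 in YUMM1.7 and 3089 in YUMM1.1. By the 4-fold rule 0 were higher and 1 lower (Loxl1) in YUMM2.1 than in YUMM1.7, 1 higher (Pcolce) and 0 lower when YUMM2.1 was set against YUMM1.1, and 2 higher (Loxl1 and Pcolce) and 1 lower (Sparc) in YUMM1.7 than in YUMM1.1. Over all symbols these shares were 3.13% and 5.54%, 1.47% and 1.11%, and 3.95% and 3.06%. With a common sum, Sparc (3.25) and the propeptide protease gene Bmp1 (2.01) were higher in YUMM2.1 than in YUMM1.7, and the procollagen protease gene Adamts14 (2.35) was higher in YUMM2.1 than in YUMM1.1. With that scaling 13.6% of all symbols were higher in YUMM2.1 than in YUMM1.7, and 2.93% were higher in YUMM2.1 than in YUMM1.1.

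Of 10 collagen receptor genes, 6 reached 1 FPKM in a line, and 4 of these set YUMM1.7 apart from both other lines as deposited. The other receptor genes, Itgb1 and Itga2, did not reach 4-fold on the log2(FPKM + 1) scale. Itgb1 stood at 124 FPKM in YUMM2.1, 81.6 in YUMM1.7 and 189 in YUMM1.1. Itga2 stood at 1.79 FPKM in YUMM2.1, 0.0616 in YUMM1.7 and 1.52 in YUMM1.1. Ddr2, a receptor tyrosine kinase that binds fibrillar collagen, stood at 0.10 FPKM in YUMM2.1, 24.3 in YUMM1.7 and 0.0380 in YUMM1.1. Ddr1, its relative, which also binds type IV collagen, stood at 23.5 FPKM in YUMM2.1, 3.61 in YUMM1.7 and 32.3 in YUMM1.1. Ddr2 was thus the higher of the pair in YUMM1.7 and Ddr1 in YUMM2.1 and YUMM1.1.

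The uptake receptor gene Mrc2 stood at 0.0195 FPKM in YUMM2.1, 27.0 in YUMM1.7 and 0.0249 in YUMM1.1. Itga1, the gene of a collagen-binding integrin subunit, stood at 12.3 FPKM in YUMM2.1, 0.314 in YUMM1.7 and 9.48 in YUMM1.1. Mrc2 and Ddr2 were at least 4-fold lower, and Itga1 and Ddr1 at least 4-fold higher, in YUMM2.1 than in YUMM1.7. The same 4 genes were at least 4-fold apart, 2 higher and 2 lower, in YUMM1.7 against YUMM1.1, and 0 were in YUMM2.1 against YUMM1.1. Over all symbols 3.13% were higher and 5.54% lower in the first of these comparisons, 3.95% and 3.06% in the second, and 1.47% and 1.11% in the third. With a pseudocount of 5, Itga1 (1.7) and Ddr1 (1.73) no longer reached 4-fold in YUMM2.1 against YUMM1.7, nor did Itga1 (-1.45) in YUMM1.7 against YUMM1.1.

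**Figure D5:**
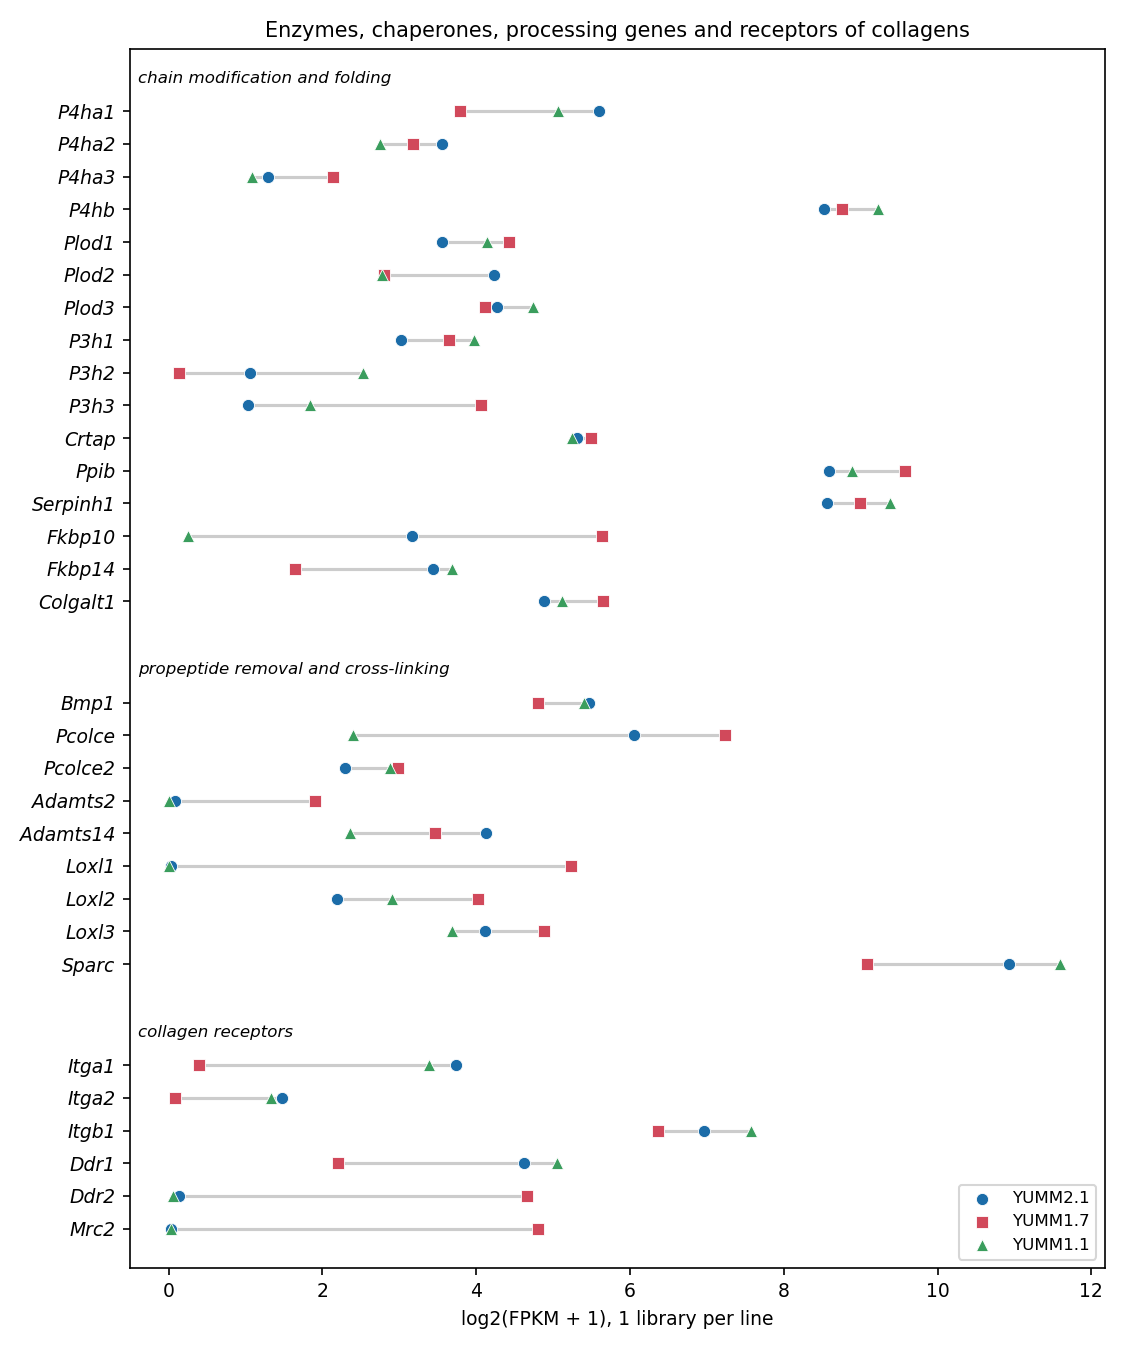
Level of the genes of collagen folding, processing and binding at 1 FPKM or more in at least 1 line, as log2(FPKM + 1), with 1 point per line (1 library each). Fkbp10, Loxl1, Ddr2 and Mrc2 are highest in YUMM1.7, at 48.9, 36.7, 24.3 and 27.0 FPKM, while Serpinh1 and P4hb lie close together in the 3 lines.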

How the data were processed

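Total RNA of each of 3 cell lines was sequenced as 1 library. The submitters' processing notes name TopHat2 2.0.9, Cufflinks and Cuffnorm. The deposited values are FPKM per gene symbol, made by the authors, with 0 repeated symbols. Genome build, annotation, filters, strandedness and any scaling across libraries: not given in the sources used here.

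Values were read as log2(FPKM + 1) for symbols with 1 FPKM or more in at least 1 line, and a difference of 2 was counted. Every member was named, those below 1 FPKM by class. Of the genes of collagen folding, processing and binding, those at 4-fold in a pair were named, with Serpinh1, P4ha1, P4hb, Plod2, Lox, Ddr1 and Ddr2 whatever their values. Mia3, P3h1, Bmp1, Adamts14, Itgb1 and Itga2 were named after their values were seen. The members and lists were chosen with earlier results of these data known. Current symbols were matched to older ones for the prolyl 3-hydroxylase and Colgalt genes, and P3h4 and Pmel had no row.

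Depth came from the spacing of low FPKM values times length, over genes of 2000 nt or more that have 1 transcript in GENCODE M21. Of these values, 80.8% in YUMM2.1, 80.9% in YUMM1.7 and 84.2% in YUMM1.1 lay within 0.2 of a whole multiple. The functions were tested on simulated data. Python 3.11.15, numpy 2.4.6, pandas 2.3.3 and matplotlib 3.10.9 were used.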

Additional observations from a re-analysis of the deposited data

How the results depend on the processing

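No paired analysis was possible because each line has 1 library. No difference changed sign for a chain past 4-fold, and of the 63 differences of single chains (21 chains in 3 comparisons), 13 more reached 4-fold with a pseudocount of 0.1, 6 fewer with 5, 7 more with a common sum, 1 more with a common upper quartile and 0 more or fewer with the median ratio. For YUMM2.1 against YUMM1.7, the higher chains numbered 10 with a pseudocount of 0.1 (6.79% of all symbols), 12 with a common sum and 10 by the 2-fold rule (11.7%). Their median was 1.07 and 0.63 with pseudocounts of 0.1 and 5, 0.12 with no minimum, 2.11 with a common sum and 0.61 relative to symbols of like length. For YUMM2.1 against YUMM1.1, the higher chains numbered 4, 1 and 5 and the lower 5, 2 and 6 with pseudocounts of 0.1 and 5 and by the 2-fold rule, beside 4.29%, 0.375% and 6.21% of all symbols higher and 2.33%, 0.485% and 7.64% lower. The median was 0.0033 with no minimum, -0.55 at 5 FPKM, 0.17 with a common sum, -0.23 with a common upper quartile and -0.61 by length. For YUMM1.7 against YUMM1.1, the higher chains numbered 4 with a pseudocount of 0.1 (7.07% of all symbols) and by the 2-fold rule (13.5%), and the lower 4 with 5 (1.11%) and 14 by the 2-fold rule (9.91%). The median was -1.37 and -0.93 with pseudocounts of 0.1 and 5, -0.11 with no minimum, -1.91 with a common sum and -1.05 by length. Without the most abundant chain, the zone share in YUMM2.1 was 0.702%. In YUMM1.7 it was 35.3%, beside 24.2% fibrillar, 7.47% type IV, 23.5% type VI, 5.58% fibril-associated and 3.89% short-chain, and type VI in YUMM1.1 was 2.24%. Of the synthesis and assembly genes, YUMM2.1 against YUMM1.7 had 2 higher and 5 lower with a pseudocount of 0.1, and 5 higher and 1 lower with a common sum. YUMM2.1 against YUMM1.1 had 1 higher with a pseudocount of 5, 4 higher with a common sum and 1 lower with 0.1, and YUMM1.7 against YUMM1.1 had 1 lower with 5. With a pseudocount of 5, 0 receptors were higher in YUMM2.1 against YUMM1.7 and 1 was lower in YUMM1.7 against YUMM1.1. With a common sum, 13.6% of all symbols were higher and 1.64% lower in YUMM2.1 against YUMM1.7, 2.93% and 0.741% in YUMM2.1 against YUMM1.1, and 2.25% and 5.34% in YUMM1.7 against YUMM1.1. The cause of these shifts was not tested.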
